A study of Mus musculus with 24 samples.

Results

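Messenger RNA of 8 genes that carry out or restrain programmed cell death was followed in cultured mouse glia: *Fas*, *Ripk1*, *Ripk3*, *Mlkl*, *Casp4*, *Casp8*, *Cflar* and *Gsdmd*. They were chosen by name from the apoptosis, necroptosis and pyroptosis pathways, with earlier results of these data known. All 8 were found by symbol among the 24411 genes of the tables. The study asked how astrocytes and microglia of *SOD1* G93A mice, a model of amyotrophic lateral sclerosis, differ from wild-type (WT) cells at rest and after an inflammatory stimulus. Values were used for 21 libraries of poly(A) RNA, 3 in each of 7 conditions, and *SOD1* G93A microglia at rest (3 further libraries) are not analysed here.

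Astrocytes were taken from the forebrain at postnatal day 5 by immunopanning, in which cells are caught on antibody-coated dishes, and were grown without serum in HBEGF, a growth factor. Quiescent astrocytes, WT or *SOD1* G93A, received PBS, and activated astrocytes of either genotype received a mixture of C1q (400 ng/mL), TNFα (30 ng/mL) and IL-1α (3 ng/mL). Microglia came from whole brain at postnatal days 7 to 10, were isolated with magnetic beads against CD11b and were also kept without serum. Quiescent WT microglia received PBS, and LPS microglia of either genotype received 50 ng/mL of lipopolysaccharide, a component of bacterial outer membranes. The *SOD1* G93A line was bred to C57BL/6J and carries a mutant human *SOD1* transgene in all cells, so reads of mouse *Sod1* do not check the genotype, which rests on the labels. The cells came from pups, whereas these mice develop paralysis as adults.

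In apoptosis, a death receptor such as Fas or the TNF receptor gathers FADD and caspase-8, and cFLIP, the product of *Cflar*, decides with caspase-8 whether the complex kills. When caspase-8 is blocked, RIPK1 can activate RIPK3, which phosphorylates MLKL, and MLKL breaks the plasma membrane in necroptosis. In pyroptosis, mouse *Casp4*, also called caspase-11, binds LPS inside the cell and cleaves gasdermin D into a pore, and microglia are a main site of this inflammatory machinery in the brain.

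Depth ran from 2016139 to 11570122 gene reads per library, with a median of 5098168. By group the lowest, median and highest depths were 2550560, 6940651 and 10157188 in quiescent WT microglia, and 4674300, 5098168 and 8121620 in WT LPS microglia. They were 4042840, 5917006 and 11570122 in *SOD1* G93A LPS microglia. Among astrocytes they were 2016139, 3637657 and 9258718 in quiescent WT, and 3292225, 7251063 and 9526331 in quiescent *SOD1* G93A cultures. Activated astrocytes had 5047999, 5749391 and 6768201 reads in WT and 2135439, 3721779 and 3929272 in *SOD1* G93A cultures. Levels are given as RPM, a gene's reads per 1000000 gene reads of its library, on which 3 reads were worth 0.259 to 1.49 RPM depending on the library. That floor covers counting error only.

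Replicates differed by more than sampling noise in every group, and over the 21 pairs the chi-square divided by its degrees of freedom ran from 1.50 to 21.7. Replicate 3 of the *SOD1* G93A LPS microglia stood farthest from its group (16.8 and 21.7), followed by replicate 1 of the WT LPS microglia (15.1 and 13.8). Replicate 3 of quiescent WT astrocytes (9.46 and 6.82) and replicate 1 of quiescent *SOD1* G93A astrocytes (6.77 and 10.4) also had high values. This measure grows with depth, and they were the deepest libraries of their groups (9258718 and 9526331 reads). By correlation of log2 level, replicates 1 and 3 were the least alike in both groups (Pearson r 0.9711 WT and 0.9798 *SOD1* G93A), which does not single out either replicate. Nothing in the labels says that the 3 libraries of a condition came from separate animals or cultures, so p-values measure only the spread between these samples, which may be technical.

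The labelled cell types were checked against marker genes. The 12 astrocyte markers summed to between 4277 and 6353 RPM in the astrocyte libraries, led by *Slc1a3*, and to between 139.5 and 234.7 RPM in the microglial ones, led by *Gfap*, with *Gjb6* at 0 in quiescent WT and *S100b* at 0 in WT LPS microglia. The 14 microglial markers, all with reads in every group, summed to 13080, 13580 and 12820 RPM in quiescent WT microglia, led by *Csf1r* at 2574 RPM. Their sums were 4993, 4635 and 4632 RPM in WT LPS microglia, where *Itgam* led, and 5085, 4973 and 6726 RPM in *SOD1* G93A LPS microglia, where *Csf1r* led. Every microglial library lay far above every astrocyte library for this list. In bulk samples fewer cells of a type and less RNA per cell cannot be told apart.

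Astrocyte libraries also held reads of genes listed as markers of other cell types, although the immunopanning included steps to remove microglia, endothelial cells and oligodendrocyte lineage cells. The microglial markers summed to 188, 270.8 and 344 RPM in quiescent WT, 425, 447 and 304 RPM in quiescent *SOD1* G93A, 233, 379.7 and 204 RPM in activated WT and 286, 198 and 217 RPM in activated *SOD1* G93A astrocytes. Those sums overlapped between activated and quiescent WT cultures, whereas in *SOD1* G93A cultures all 3 activated sums lay below the quiescent ones. The 10 oligodendrocyte lineage markers, led by *Olig1*, summed to 3009, 2927 and 2831 RPM in quiescent WT astrocytes (*Mog* at 0) and to 1072, 1108 and 1047 RPM in activated WT astrocytes. The same list in *SOD1* G93A astrocytes gave 3437, 3193 and 3241 RPM quiescent and 1058, 1016 and 1083 RPM activated.

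The sum of 8 neuronal markers, all with reads, went from 955, 985 and 756 RPM in quiescent to 394, 444 and 447 RPM in activated WT astrocytes, a drop carried by *Map2* alone. Without *Map2* the other 7 summed to 30.3, 27.5 and 23.65 RPM quiescent and between 42 and 48 RPM activated, the opposite direction. In *SOD1* G93A astrocytes the 8 summed to between 918 and 1006 RPM quiescent and 394, 409.7 and 427 RPM activated, and the 7 without *Map2* to 19.1, 23.4 and 24.9 RPM against 33.6, 30.3 and 28.6 RPM. The 8 endothelial markers gave 8.93, 9.90 and 13.4 RPM in quiescent and 137, 149 and 153 RPM in activated WT astrocytes, of which *Flt1* alone made 135, 146 and 150 RPM in the activated cultures. *SOD1* G93A astrocytes had endothelial sums of 6.72, 7.72 and 6.99 RPM quiescent and 118, 117 and 112 RPM activated. *Cldn5* and *Ly6c1* were at 0 in all 4 astrocyte groups, and the 7 endothelial markers without *Flt1* summed to at most 3.13 RPM in any astrocyte library.

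In microglia the oligodendrocyte list, there led by *Cspg4*, went from 1321, 1346 and 1362 RPM in quiescent to 109, 108 and 116 RPM in LPS WT cultures, and its other 9 genes from 118, 108 and 115 RPM to 47.5, 41.4 and 47.3 RPM. The 8 fibroblast and pericyte markers, led by *Acta2*, summed to between 22.0 and 87.8 RPM over the 21 libraries, and 6 markers of other leukocytes to between 0 and 8.83 RPM. With activation *Acta2* went from 50.1, 55.5 and 64.6 RPM to 20.2, 34.0 and 21.9 RPM in WT astrocytes, whereas the other 7 of its list went from 9.92, 11.8 and 18.6 RPM to 58.0, 53.8 and 47.1 RPM. Both moved in the same directions in *SOD1* G93A astrocytes, the 7 from 9.55, 9.24 and 9.42 RPM to 34.4, 39.7 and 37.5 RPM. Between quiescent and activated astrocytes of both genotypes the oligodendrocyte sum, *Map2*, *Flt1*, *Acta2* and the 7 genes listed with *Acta2* did not overlap, nor did the astrocyte sum in WT and the microglial sum in *SOD1* G93A cultures. Members of the astrocyte list went opposite ways in WT cultures. *Gfap* rose from 369.5, 352.4 and 699.3 to 968.9, 940.4 and 902.2 RPM, whereas *Aldoc*, *Gja1*, *Aldh1l1*, *Aqp4* and *Slc1a2* fell. With LPS in WT microglia the microglial, oligodendrocyte, endothelial (from 67.2, 75.3 and 75.2 to 45.6, 55.9 and 51.1 RPM) and neuronal sums were lower and the fibroblast and pericyte and the other leukocyte sums higher, without overlap, and only the astrocyte sums overlapped. Members of 2 of these lists went opposite ways. Endothelial genes other than *Flt1* summed to 20.7, 18.0 and 20.6 RPM quiescent, whereas *Kdr*, among them, alone had 25.7, 37.3 and 30.2 RPM after LPS. *Acta2* went from 18.0, 20.8 and 18.6 to 16.0, 9.22 and 15.8 RPM. The other 7 of its list went from 12.4, 6.27 and 5.76 to 21.7, 22.2 and 18.2 RPM. These sums and genes stand beside every change given for these stimuli, and their part in the results was not tested.

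Of the 8 genes, *Cflar* had more reads than any other in each of the 21 libraries, from 45.2% to 69.4% of their sum, but it also has the longest exons. Exon length here merges all annotated exons of a gene, 12669 bases for *Cflar* and 8344 for *Ripk1* against 2062 for *Fas* and 2303 for *Mlkl*. Which transcripts were expressed was not examined, so the order of genes per kilobase depends on these lengths. Per kilobase of exon, quiescent WT microglia held *Casp8* at 21.01, *Cflar* at 18.8, *Gsdmd* at 15.8 and *Ripk1* at 14.3 RPM per kb, and the other 4 genes between 0.933 and 3.13 RPM per kb. In WT LPS microglia the order per kilobase was *Cflar* (75.2), *Casp8* (35.0), *Gsdmd* (31.9), *Mlkl* (29.9), *Casp4* (24.2), *Ripk1* (14.8), *Fas* (6.30) and *Ripk3* (2.86 RPM per kb). Thus *Mlkl* and *Casp4* passed *Ripk1*, while *Ripk3*, the kinase that acts on MLKL, came last. Quiescent WT astrocytes held *Cflar* at 5.43, *Ripk1* at 4.99, *Fas* at 3.15 and *Casp8* at 1.85 RPM per kb, with *Gsdmd*, *Mlkl*, *Casp4* and *Ripk3* each below 0.4. In activated WT astrocytes *Fas* led at 20.4 RPM per kb, followed by *Cflar* (10.4), *Casp4* (8.99), *Ripk1* (5.43), *Casp8* (5.36), *Mlkl* (1.03), *Gsdmd* (0.779) and *Ripk3* (0.442). Activated *SOD1* G93A astrocytes had *Fas* at 19.4, *Cflar* at 10.5 and *Casp4* at 9.89 RPM per kb as their first 3.

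**Figure D1:**
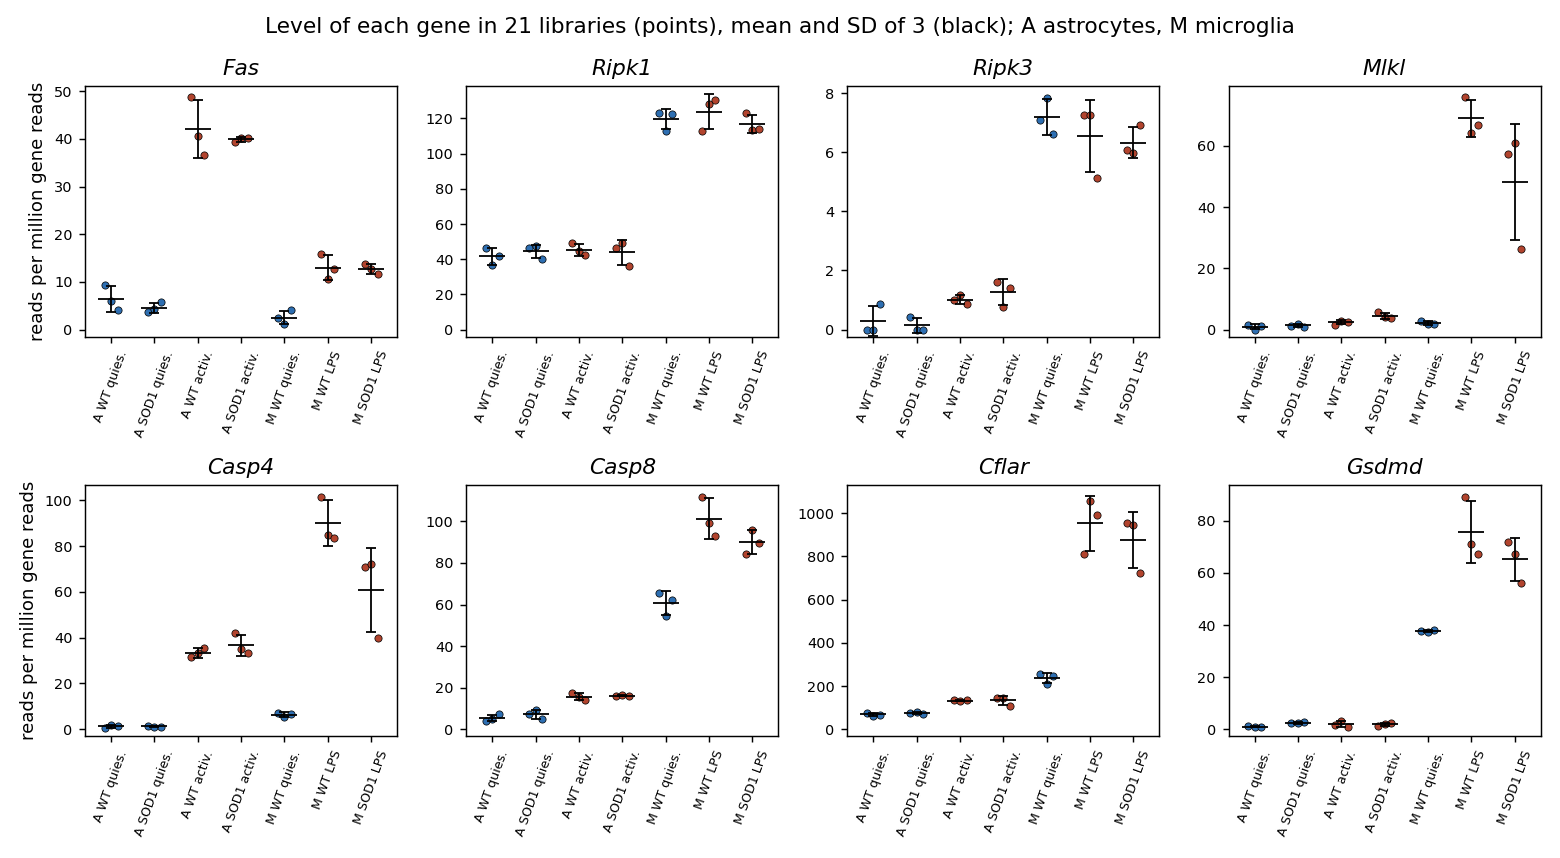
Level of each of the 8 genes in RPM (vertical axis) in the 21 libraries, 1 panel per gene, with A for astrocytes, M for microglia, blue for quiescent and red for activated or LPS cultures. Points are libraries, and black marks give the mean and SD of the 3 libraries of a condition; *Mlkl* lies at or below 5.64 RPM in every library outside the LPS microglia.

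Differences were tested with limma across all genes that averaged at least 10 normalized counts in the fit, as log2(normalized count + 1), a scale that understates the change of low genes. A gene was called at a Benjamini-Hochberg adjusted p under 0.001 and a change over 2-fold, and the looser rule took an adjusted p under 0.05 at any fold. An exact permutation test of 3 against 3 libraries cannot go below p = 0.1 and was not used. The comparisons share libraries wherever they name the same condition, so they are not independent of each other.

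In WT astrocytes, IL-1α, TNFα and C1q raised 3 of the 5 genes tested, *Casp4*, *Fas* and *Casp8*, beside 11.5% of 12336 genes called. The looser rule added *Cflar*, 4 of 5 beside 38.3% of all genes. The median change of the 5 was 1.56 on the log2 scale against 0.014 over all genes. Among *SOD1* G93A astrocytes the same 3 genes of 6 tested were called beside 13.3% of 12269 genes, and the looser rule took 5 of 6 beside 43.4%. *Casp4* in both genotypes and *Mlkl* in the latter passed the minimum only through the activated cultures, which favours a difference, so these counts and the median only describe the genes that passed.

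In WT microglia, LPS raised 5 of 8 genes, *Mlkl*, *Casp4*, *Fas*, *Cflar* and *Gsdmd*, beside 20.8% of 10866 genes called. The looser rule took 7 of 8, leaving out *Ripk3*, beside 56.9% of all genes. The median change of the 8 was 1.71 against 0.0048 over all genes. Since the genes were chosen with earlier results of these data known, these counts and the median only describe the 8.

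Between the quiescent WT cells of the 2 types, 6 of 8 genes were called, all higher in microglia, beside 47.6% of 12334 genes. All 8 passed the looser rule beside 78.6%, *Fas* being the only one lower in microglia. Of these, *Ripk3*, *Mlkl*, *Casp4* and *Gsdmd* had fewer than 10 normalized counts in quiescent astrocytes and passed the minimum through other groups, so the count only describes the genes that passed. With TMM, another scaling, the median of all genes in this comparison moved from −0.067 to 0.063. The differences between the responses of the 2 cell types called 1 of 8 genes, *Cflar*, beside 15.2% of 12334, and the looser rule added *Mlkl*, 2 of 8 beside 41%. That comparison sets LPS in microglia against IL-1α, TNFα and C1q in astrocytes, so the cell type and the stimulus cannot be told apart. In it *Ripk3*, *Mlkl* and *Gsdmd*, too low for a test of activation in WT astrocytes, passed the minimum only through microglia. Its count therefore only describes the genes that passed.

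*Fas* encodes a death receptor of the TNF receptor family that binds Fas ligand. It had 9.42, 6.05 and 3.996 RPM in quiescent WT astrocytes and 48.7, 40.6 and 36.7 RPM in activated ones. In *SOD1* G93A astrocytes it had 3.67, 4.28 and 5.77 RPM quiescent and 39.2, 40.2 and 40.3 RPM activated. All 6 activated astrocyte libraries lay above all 6 quiescent ones. In microglia it had 2.36, 1.18 and 4.03 RPM in quiescent WT, 15.8, 10.6 and 12.6 RPM in WT LPS and 13.7, 12.7 and 11.6 RPM in *SOD1* G93A LPS cultures. The quiescent microglial values rest on 24, 3 and 28 reads, and no quiescent library reached any LPS library.

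*Fas* rose 6.74-fold in WT astrocytes (log2 change 2.75, SE 0.25, adjusted p = 6.47e-06, limma), being higher in 3 of 3 libraries. The rise in *SOD1* G93A astrocytes was 9.01-fold (log2 change 3.17, SE 0.23, adjusted p = 4.65e-09). In WT microglia LPS raised it 6.15-fold (log2 change 2.62, SE 0.36, adjusted p = 0.000113). The response in microglia minus that in astrocytes was −0.087 on the log2 scale, with an adjusted p of 0.911. Between quiescent WT cells, microglia had less *Fas* than astrocytes by a log2 change of −0.84 (SE 0.35, adjusted p = 0.0392), which passed only the looser rule, and 1 library of each type overlapped. By mean level, activated WT (42.02 ± 6.14 RPM, SD, n = 3) and *SOD1* G93A astrocytes (39.9 ± 0.586) came first and overlapped, then the LPS microglia of both genotypes (13.0 ± 2.60 and 12.7 ± 1.03), then the quiescent cultures, which all overlapped with their neighbours in the order. Its ligand gene *Fasl* had no read in 19 of the 21 libraries, and *Fadd*, the adaptor, had a mean of 26.8 RPM in quiescent and 23.2 RPM in activated WT astrocytes.

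*Ripk1* encodes a kinase and scaffold at the TNF receptor that serves both survival and death signals. It had 122.9, 112.9 and 122.6 RPM in quiescent WT microglia, 113, 128.5 and 130.5 RPM in WT LPS and 123, 114 and 114 RPM in *SOD1* G93A LPS microglia. Astrocytes had 46.6, 36.8 and 41.6 RPM in quiescent WT, 49.1, 44.5 and 42.3 RPM in activated WT, 46.2, 47.3 and 40.4 RPM in quiescent *SOD1* G93A and 46.2, 49.4 and 36.1 RPM in activated *SOD1* G93A cultures. Every microglial library lay above every astrocyte library, and within each cell type neighbouring groups overlapped, with means of 117.0 to 123.9 RPM in microglia and 41.7 to 45.3 RPM in astrocytes. The activation changes were 0.15 in WT astrocytes (95% interval −0.11 to 0.40, adjusted p = 0.354, limma) and 0.050 in *SOD1* G93A astrocytes (adjusted p = 0.786). LPS gave 0.27 in WT microglia (SE 0.094, adjusted p = 0.0338), which passed only the looser rule and whose groups were apart in normalized counts but overlapped in RPM. Quiescent microglia had 4.19 times the *Ripk1* of quiescent astrocytes (log2 difference 2.07, SE 0.10, adjusted p = 1.26e-10). Its exons share 511 bases with *Gm17084* on the same strand and 241 bases with *Serpinb6a* on the other, so its values are uncertain to that extent.

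*Casp8* encodes the initiator protease of death receptor signalling, which also cleaves RIPK1 and RIPK3. It had 65.8, 54.5 and 62.1 RPM in quiescent WT microglia, 112, 99.2 and 92.8 RPM in WT LPS and 84.3, 95.8 and 89.5 RPM in *SOD1* G93A LPS microglia. In astrocytes it had 3.97, 4.95 and 7.13 RPM in quiescent WT and 17.2, 15.4 and 13.9 RPM in activated WT cultures, and 7.14, 9.24 and 4.86 RPM in quiescent and 15.8, 16.5 and 15.9 RPM in activated *SOD1* G93A cultures. Activated and quiescent astrocytes were apart in both genotypes, as were LPS and quiescent microglia.

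*Casp8* rose 2.94-fold in WT astrocytes (log2 change 1.56, SE 0.24, adjusted p = 0.000352, limma). That call was lost without quiescent WT replicate 2 (log2 change 1.52) and without activated WT replicate 1 (1.48), 2 (1.57) or 3 (1.62). In *SOD1* G93A astrocytes it rose 2.44-fold (log2 change 1.29, SE 0.24, adjusted p = 0.000337), a call lost without a filter on low values, without quiescent *SOD1* G93A replicate 3 (1.03) and without activated *SOD1* G93A replicate 1 (1.31), 2 (1.27) or 3 (1.29). In WT microglia LPS gave a 1.93-fold change (log2 0.95, SE 0.10, adjusted p = 1.71e-05), below the 2-fold limit except without WT LPS replicate 3 (1.01). The difference between the 2 responses, microglia minus astrocytes, was −0.58 with an adjusted p of 0.0990. Quiescent microglia held 16.4 times the *Casp8* of quiescent astrocytes (log2 difference 4.03, SE 0.19, adjusted p = 4.90e-11). The order of means was WT LPS (101.4 ± 9.77 RPM, SD, n = 3) and *SOD1* G93A LPS microglia (89.9 ± 5.77), which overlapped, then quiescent WT microglia (60.8 ± 5.75), then activated astrocytes (16.1 ± 0.38 *SOD1* G93A, 15.5 ± 1.66 WT) and quiescent astrocytes (7.08 ± 2.19 *SOD1* G93A, 5.35 ± 1.62 WT), genotypes overlapping in each pair.

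*Cflar* encodes cFLIP, a relative of caspase-8 without protease activity that holds it in check. It had 255, 211 and 248 RPM in quiescent WT microglia, 813, 1056 and 991 RPM in WT LPS and 954, 946 and 724 RPM in *SOD1* G93A LPS microglia. Astrocytes had 76.4, 63.2 and 66.9 RPM in quiescent WT and 134.7, 129 and 133 RPM in activated WT cultures, against 73.7, 80.5 and 72.3 RPM and 143, 147 and 109.6 RPM in the *SOD1* G93A cultures. Each stimulated group was apart from its quiescent one. By mean, WT (953 ± 126 RPM, SD, n = 3) and *SOD1* G93A LPS microglia (875 ± 130.2) came first, then quiescent WT microglia (238 ± 23.6), activated astrocytes (133 ± 20.46 *SOD1* G93A, 132 ± 2.94 WT) and quiescent astrocytes (75.5 ± 4.41 *SOD1* G93A, 68.8 ± 6.79 WT), genotypes overlapping in each pair.

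LPS raised *Cflar* 4.63-fold in WT microglia (log2 change 2.21, SE 0.12, adjusted p = 7.56e-08, limma). In astrocytes it changed 1.96-fold in WT (log2 0.97, SE 0.093, adjusted p = 9.83e-06) and 1.85-fold in *SOD1* G93A cultures (log2 0.89, SE 0.11, adjusted p = 2.38e-06), both below 2-fold and so passing only the looser rule. It was over 2-fold without quiescent WT replicate 1 (log2 1.03) and, in *SOD1* G93A cultures, without activated replicate 3 (1.02). The response in microglia was larger than that in astrocytes by 1.27 on the log2 scale (95% interval 0.93 to 1.60, SE 0.16), a 2.41-fold difference with an adjusted p of 1.55e-05. Quiescent microglia held 5.05 times the *Cflar* of quiescent astrocytes (log2 difference 2.34, SE 0.11, adjusted p = 5.62e-11).

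*Ripk3* encodes the kinase that phosphorylates MLKL. In microglia it had 7.09, 7.84 and 6.63 RPM in quiescent WT, 7.26, 7.26 and 5.13 RPM in WT LPS and 6.08, 5.96 and 6.93 RPM in *SOD1* G93A LPS cultures, and all 3 groups overlapped. In astrocytes it was near the detection floor, with 0, 0 and 8 reads in quiescent WT, 4, 0 and 0 in quiescent *SOD1* G93A, 5, 8 and 5 in activated WT and 6, 3 and 3 in activated *SOD1* G93A cultures. Its highest astrocyte value, 1.61 RPM, was below its lowest microglial value, and within each genotype the activated astrocyte libraries lay above the quiescent ones, in WT narrowly (0.870 RPM or more against 0.864 RPM or less). LPS changed it by 0.066 on the log2 scale (95% interval −0.39 to 0.52, adjusted p = 0.803, limma), and in astrocytes it was too low for a test of activation. Quiescent microglia had 26.6 times the *Ripk3* of quiescent astrocytes (log2 difference 4.74, SE 0.50, adjusted p = 5.22e-07), a size that depends on the low astrocyte counts. It was 3.02 with a pseudocount of 5, 5.44 with one of 0.5 and 5.49 without quiescent WT astrocyte replicate 3, which held all 8 reads of its group. In the fit of both cell types *Ripk3* passed the minimum only through the microglia. The difference of the responses, microglia minus astrocytes, was −1.56 (adjusted p = 0.0921). That difference was called at −2.32 without that same astrocyte library, a call that rests on a quiescent astrocyte group with no read. It was −0.55 with a pseudocount of 5, −0.77 by edgeR and −0.84 by DESeq2.

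*Mlkl* encodes the pseudokinase that permeabilizes the plasma membrane in necroptosis. It had 2.76, 1.96 and 1.73 RPM in quiescent WT microglia, from 28, 5 and 12 reads, and 75.8, 64.1 and 67.0 RPM in WT LPS microglia. In *SOD1* G93A LPS microglia it had 57.3, 61.1 and 26.5 RPM, the lowest being the replicate 3 that stood apart. Every LPS library lay far above every quiescent one. In astrocytes it had 1.49, 0 and 1.19 RPM in quiescent WT, 1.26, 1.93 and 0.911 RPM in quiescent *SOD1* G93A, 1.58, 2.95 and 2.61 RPM in activated WT and 5.64, 4.07 and 3.75 RPM in activated *SOD1* G93A cultures. Activated astrocytes lay above quiescent ones in both genotypes, on 8 to 21 reads a library.

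LPS raised *Mlkl* 34.8-fold in WT microglia (log2 change 5.12, SE 0.18, adjusted p = 3.08e-09, limma), the largest change of the 8 genes there. In WT astrocytes its mean was too low for a test. Its normalized means in *SOD1* G93A astrocytes were 6.11 quiescent and 21.2 activated, and it reached the minimum of that fit (mean 10.6) only through the activated cultures, so the test favours a difference. The change there was 1.67 (95% interval 0.38 to 2.97, SE 0.61, adjusted p = 0.0359), not called, and the gene fell below the minimum in 3 of the 12 fits that left out a library. *Mlkl* averaged 7.96 normalized counts in the WT astrocyte fit. It passed the minimum of the fit of both cell types only through the LPS microglia, so that test also favours a difference. The response in microglia exceeded that in WT astrocytes by 3.54 on the log2 scale (95% interval 1.86 to 5.21, adjusted p = 0.00221), which passed the looser rule. That difference was called with a pseudocount of 5 (3.95), by edgeR (3.81), by DESeq2 (3.79) and without quiescent WT astrocyte replicate 2 (4.45), in which *Mlkl* had no read. Quiescent microglia and quiescent astrocytes had normalized means of 13.2 and 3.75, which together average below the minimum, and *Mlkl* entered that fit through the LPS cultures. The difference, uncertain at such counts, was 1.98 (SE 0.55, adjusted p = 0.00437), which DESeq2 called at 1.80 and which was 1.08 without that same astrocyte library and 1.12 with a pseudocount of 5. By mean, WT LPS microglia (69.0 ± 6.11 RPM, SD, n = 3) were apart from *SOD1* G93A LPS microglia (48.3 ± 19.0), these from activated *SOD1* G93A astrocytes (4.49 ± 1.01), and these from activated WT astrocytes (2.38 RPM), which overlapped with quiescent WT microglia (2.15 ± 0.539). These overlapped with the quiescent *SOD1* G93A astrocytes (up to 1.93 RPM) and lay above the quiescent WT ones (up to 1.49 RPM).

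*Casp4* encodes the inflammatory protease that senses LPS in the cytosol. It had 6.99, 5.10 and 6.63 RPM in quiescent WT microglia, 101.5, 84.7 and 83.4 RPM in WT LPS and 70.6, 72.2 and 39.8 RPM in *SOD1* G93A LPS microglia. In astrocytes it had 0.496, 1.92 and 1.19 RPM in quiescent WT, from 1, 7 and 11 reads, and 31.3, 33.2 and 35.5 RPM in activated WT cultures. In *SOD1* G93A astrocytes it had 1.36, 1.10 and 0.911 RPM quiescent and 41.9, 34.9 and 33.2 RPM activated. Stimulated and quiescent groups were far apart in both cell types.

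*Casp4* rose 26.6-fold in WT astrocytes (log2 change 4.73, SE 0.35, adjusted p = 1.53e-06, limma) and had the largest change of the 5 genes tested there. In *SOD1* G93A astrocytes it rose 29.1-fold (log2 change 4.86, SE 0.31, adjusted p = 1.15e-09). With a pseudocount of 5 these 2 changes were 4.01 and 4.15. LPS raised it 16.3-fold in WT microglia (log2 change 4.03, SE 0.14, adjusted p = 3.35e-09). The response in microglia minus that in astrocytes was −0.64 (adjusted p = 0.243), and 0.014 with a pseudocount of 5. Quiescent microglia held 7.05 times the *Casp4* of quiescent astrocytes (log2 difference 2.82, SE 0.29, adjusted p = 4.74e-07), or a log2 difference of 2.14 with a pseudocount of 5. In the order of means WT LPS microglia (89.9 ± 10.1 RPM, SD, n = 3) came first, *SOD1* G93A LPS microglia (60.9 ± 18.2) overlapped with activated *SOD1* G93A (36.7 ± 4.61) and these with activated WT astrocytes (33.3 ± 2.09), and quiescent microglia (6.24 ± 1.01) were apart from quiescent astrocytes (1.20 RPM WT, 1.13 RPM *SOD1* G93A).

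*Gsdmd* encodes gasdermin D, the pore protein that caspase-11 and caspase-1 cleave. It had 37.7, 37.2 and 37.9 RPM in quiescent WT microglia, 89.3, 71.0 and 67.2 RPM in WT LPS and 72.0, 67.4 and 56.1 RPM in *SOD1* G93A LPS microglia, the LPS libraries all above the quiescent ones. In astrocytes it stayed below 3.2 RPM in every library, with 2, 3 and 9 reads in quiescent WT, 8, 21 and 5 in activated WT, 21, 16 and 9 in quiescent *SOD1* G93A and 5, 7 and 5 in activated *SOD1* G93A cultures. Thus the astrocytes that gained *Casp4* reads held few of the gene for its substrate. LPS raised *Gsdmd* 2.32-fold in WT microglia (log2 change 1.21, SE 0.11, adjusted p = 6.21e-06, limma). In astrocytes its mean was too low for a test of activation, and quiescent and activated WT cultures overlapped. Quiescent microglia held 47.4 times the *Gsdmd* of quiescent astrocytes (log2 difference 5.57, SE 0.30, adjusted p = 2.24e-10), or 4.73 on the log2 scale with a pseudocount of 5. *Gsdmd* passed the minimum of the fit of both cell types only through microglia, and the difference of the responses was 0.52 with an adjusted p of 0.350. By mean the order was WT LPS (75.8 ± 11.8 RPM, SD, n = 3) and *SOD1* G93A LPS microglia (65.2 ± 8.15), which overlapped, then quiescent WT microglia (37.6 ± 0.333), then quiescent *SOD1* G93A (2.38 ± 0.305), activated WT (1.85 RPM) and activated *SOD1* G93A astrocytes (1.82 RPM), which overlapped, and quiescent WT astrocytes (0.930 ± 0.0914), which lay apart from the activated *SOD1* G93A ones.

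**Figure D2:**
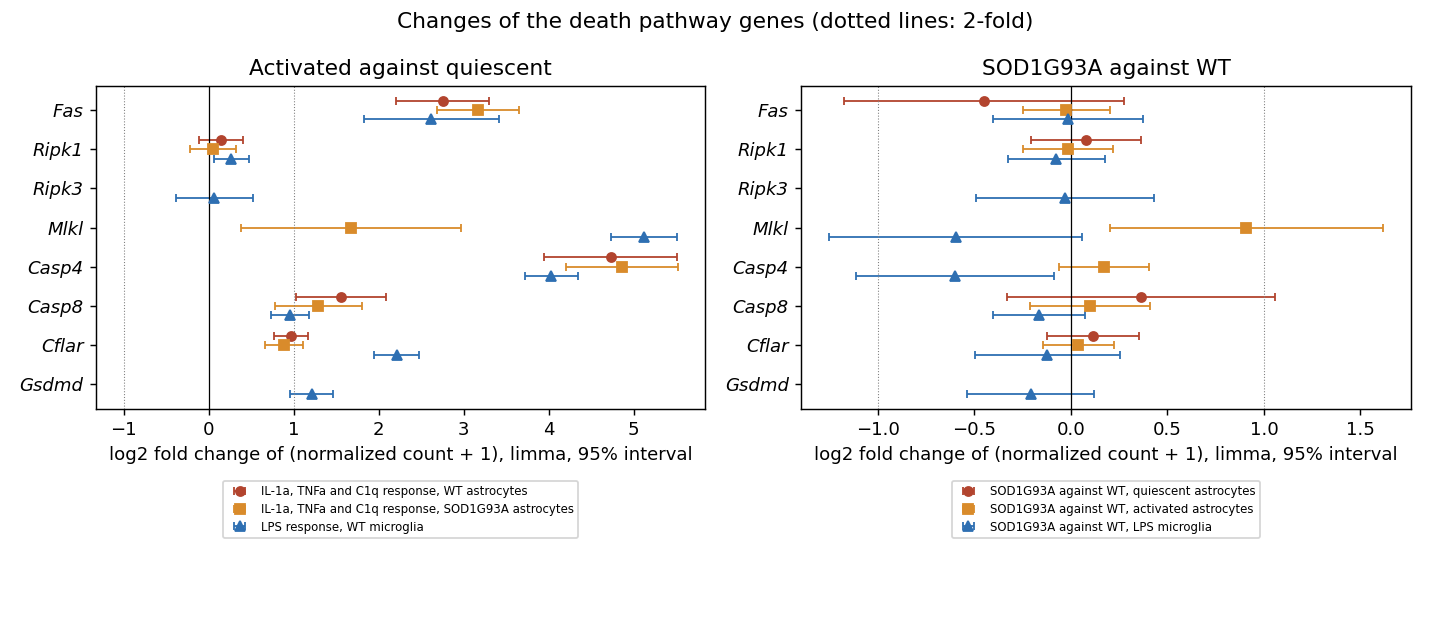
Log2 fold changes of the 8 genes with 95% intervals, for activated against quiescent cultures (left: WT astrocytes red circles, *SOD1* G93A astrocytes orange squares, WT microglia blue triangles) and for *SOD1* G93A against WT (right: quiescent astrocytes, activated astrocytes and LPS microglia). Dotted lines mark 2-fold, and genes too low for a test have no point; *Casp4* and *Fas* lie beyond 2-fold in the 3 responses, whereas no genotype difference was called.

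The comparisons of genotype asked whether *SOD1* G93A glia differ from WT glia before or after the stimulus. In quiescent astrocytes limma called 0 of the 4 genes tested, 0% of 12271 genes being called (1068 at an unadjusted p under 0.05, DESeq2 6, edgeR 0), and 0 of 4 passed the looser rule beside 0.057%. *Fas* differed by −0.45 (95% interval −1.18 to 0.27, adjusted p = 0.710), *Casp8* by 0.36 (95% interval −0.33 to 1.06, adjusted p = 0.754), *Cflar* by 0.11 and *Ripk1* by 0.078. *Ripk3*, *Mlkl*, *Casp4* and *Gsdmd* were too low for the test. *Gsdmd* had normalized means of 4.66 in WT and 11.7 in *SOD1* G93A cultures, whose libraries did not overlap. The share of all genes without such overlap is not given here. The microglial marker sums given for these groups were 188 to 344 RPM against 304 to 447 RPM, and their part in the *Gsdmd* difference was not tested. The oligodendrocyte sums were higher in *SOD1* G93A cultures without overlap (3437, 3193 and 3241 against 3009, 2927 and 2831 RPM). Their endothelial and their fibroblast and pericyte sums were lower without overlap. The part of these lists was not tested either.

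In activated astrocytes 0 of 6 genes were called by limma, edgeR or DESeq2, beside 0.645% of 12098 genes by limma, and 0 of 6 passed the looser rule beside 7.27%. *Mlkl* alone of the 6 had an unadjusted p under 0.05 in limma (0.0145), beside 2464 of the 12098 genes. Its difference was 0.91 (95% interval 0.20 to 1.62, SE 0.34), with an adjusted p of 0.122. All 3 of 3 *SOD1* G93A libraries lay above the WT ones for *Mlkl*, and the share of all genes so separated is not given here. The other 5 tested differed by between −0.023 (*Fas*) and 0.17 (*Casp4*), and *Ripk3* and *Gsdmd* were too low. From the pathway lists, 3 genes were called higher in the *SOD1* G93A cultures. They were *Gbp3* (log2 difference 1.70, adjusted p = 5.78e-11) and *Irgm2* (1.64, adjusted p = 4.87e-05), which encode interferon-inducible GTPases, and *Eif2ak2* (1.04, adjusted p = 2.62e-07), the gene of the RNA-sensing kinase PKR. The call of *Eif2ak2* was lost without activated WT replicate 2 (0.98) or activated *SOD1* G93A replicate 1 (0.94). The *SOD1* G93A cultures also had lower endothelial sums (118, 117 and 112 against 137, 149 and 153 RPM), without overlap. Lower without overlap, too, were the fibroblast and pericyte sum, the astrocyte sum (with *Gfap* lower and *Aqp4* higher) and the neuronal sum without *Map2*. The microglial, oligodendrocyte, full neuronal and other leukocyte sums overlapped. The part of these lists was not tested.

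In LPS microglia limma called 0 of 8 genes, 0% of 10679 genes being called (930 at an unadjusted p under 0.05, DESeq2 3, edgeR 0), and 0 of 8 passed the looser rule beside 0.00936%. *Casp4* differed by −0.60 (95% interval −1.11 to −0.089, adjusted p = 0.571) and *Mlkl* by −0.60 (95% interval −1.25 to 0.059, adjusted p = 0.577), each with 3 of 3 *SOD1* G93A libraries below the WT ones. Such a separation cannot go below p = 0.1 in an exact permutation test, and its share over all genes is not given here. Without *SOD1* G93A LPS replicate 3 the differences were −0.30 and −0.20. That library had the highest sum of microglial markers among the LPS cultures, 6726 RPM, and of oligodendrocyte markers, 254 RPM. The latter sums were 153, 157 and 254 RPM in *SOD1* G93A against 109, 108 and 116 RPM in WT LPS microglia, a gap carried by *Cspg4* (112, 107 and 212 RPM against 61.3, 66.9 and 68.5 RPM), while the sums of the other 9 genes overlapped. The other leukocyte sums, led by *Ccr2*, were lower in *SOD1* G93A LPS microglia (5.75, 5.27 and 2.47 against 6.895, 8.83 and 7.70 RPM), without overlap. The part of these lists in the differences was not tested. The other 6 genes differed by between −0.21 (*Gsdmd*) and −0.015 (*Fas*).

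The response of *SOD1* G93A astrocytes minus that of WT astrocytes was tested directly. Limma called 0 of 6 genes and 0% of 12269 genes (1018 at an unadjusted p under 0.05, edgeR 4, DESeq2 22), and 0 of 6 passed the looser rule beside 0.277%. The difference was 0.42 for *Fas* (95% interval −0.26 to 1.11) and 0.14 for *Casp4* (−0.78 to 1.07). *Casp8* gave −0.26, *Cflar* −0.077, *Ripk1* −0.095 and *Mlkl* 0.010 (−1.82 to 1.84), so for *Mlkl* the interval is wide.

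Other genes of the pathways were counted from lists, to be read against the 11.5% of all genes called in activated WT astrocytes and the 20.8% called in WT LPS microglia. The minimum for the test also lets in listed genes that only the group with the higher level carries past it, which favours a difference, so these counts only describe the genes that passed. Of 5 death ligands and receptors tested, 2 rose in activated WT astrocytes, *Tnfrsf10b* (log2 change 1.94, SE 0.13, adjusted p = 8.65e-07), a TRAIL receptor, and *Tnfrsf1a* (1.29, SE 0.087, adjusted p = 7.58e-07), the TNF receptor that RIPK1 docks to. In LPS microglia 2 of 5 rose, *Tnf* and *Tnfsf10*, the TRAIL gene, the latter at least 16.0-fold above the level of 3 reads in each quiescent library, and 1 fell, *Tnfrsf21* (−1.01, adjusted p = 0.000199), whose call was lost with a pseudocount of 5, with TMM and in 3 fits that left out a library. Of 21 adaptors, kinases and ubiquitin enzymes of the receptor complexes, 4 rose in WT astrocytes and 8 in WT microglia, with none falling at this rule. *Tnfaip3*, whose product A20 edits ubiquitin and limits NF-κB, rose by 2.86 (SE 0.32) in astrocytes and 4.28 (SE 0.097) in microglia, and *Birc3*, a ubiquitin ligase of RIPK1, rose by 3.37 (SE 0.36) in astrocytes, or 2.77 with a pseudocount of 5. *Ikbke*, a kinase of the interferon pathway, rose by 6.61 (SE 0.75) in microglia, a size that was 5.55 with a pseudocount of 5, 5.80 by edgeR, 5.82 by DESeq2, and 5.45 or 7.22 without quiescent WT replicate 2 or 3. *Birc3* in quiescent astrocytes, and *Ikbke* and *Tnfsf10* in quiescent microglia, averaged fewer than 10 normalized counts and passed only through the activated or LPS cultures.

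Of the apoptotic caspases and apoptosome genes, 1 of 13 was higher and 2 lower in WT astrocytes at the looser rule, beside 38.3% of all genes in either direction. In WT microglia 3 of 12 were higher and 2 lower at that rule, beside 56.9%, and of these *Parp1* fell by 1.23 on the log2 scale (adjusted p = 5.60e-07). Of the Bcl-2 family guardians, 1 of 6 rose in WT astrocytes, *Bcl2l1* (log2 change 1.15, adjusted p = 1.52e-05), and in WT microglia 3 of 7 rose and *Bcl2* fell by 1.41 (adjusted p = 4.53e-06). The near-identical copies *Bcl2a1a* and *Bcl2a1d*, at 3.41 and 2.89, are uncertain as single genes. Of Bcl-2 effectors and BH3-only genes, 3 of 9 rose in WT astrocytes, with *Bbc3*, the gene of PUMA, at 1.82 and *Bid*, a caspase-8 substrate, at 1.59, while in WT microglia 1 of 8 fell, *Bmf* (−2.78, adjusted p = 3e-06).

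Upstream of necroptosis, 1 of 8 inputs rose in WT astrocytes, *Tlr4* (log2 change 1.38, adjusted p = 0.000473), a call lost without quiescent WT replicate 2 or any of the 3 activated libraries. In WT microglia 3 of 8 rose, *Zbp1* by 5.25 (SE 0.11, adjusted p = 9.40e-11) and *Tlr3* by 1.68 (SE 0.15, adjusted p = 4.06e-06) most. *Zbp1*, a sensor that binds RIPK3, went from 11.3, 10.2 and 12.3 RPM in quiescent to 420, 372 and 338 RPM in LPS WT microglia, beside the rise of *Mlkl*. In activated WT astrocytes it had 2.38, 2.66 and 2.61 RPM, within its quiescent range of 2.16 to 2.75 RPM, and its response in microglia exceeded that in astrocytes by 5.21 (SE 0.21, adjusted p = 4.10e-10).

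Of the inflammasome and pyroptosis list, 4 of 12 rose in WT astrocytes and 11 of 17 rose and 2 fell in WT microglia, with list medians of 0.62 and 2.62 on the log2 scale. The guanylate-binding protein genes *Gbp2* and *Gbp5*, whose products help expose LPS to caspase-11, rose by 4.82 (SE 0.15) and 4.08 (SE 0.31) in WT astrocytes beside *Casp4*. In WT microglia *Il1b* and *Gbp5* rose most, by 7.33 (SE 0.11) and 6.58 (SE 0.15), whereas *Nlrp1b* fell by 1.52 and *Pycard*, the adaptor ASC, by 1.35 (adjusted p = 0.000201), the latter call being lost without quiescent WT replicate 2 or 3 or WT LPS replicate 3. *Casp1*, the other protease that cleaves gasdermin D, had means of 1.26 RPM in quiescent and 12.8 RPM in activated WT astrocytes and of 20.9 and 79.5 RPM in quiescent and LPS WT microglia.

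Activation of *SOD1* G93A astrocytes, which called 13.3% of all genes, raised 2 of 4 death ligands and receptors, 3 of 21 complex genes, 1 of 6 guardians, 3 of 9 effectors and BH3-only genes, 3 of 8 necroptosis inputs and 6 of 12 inflammasome genes, and lowered 1 gene, *Bmf*, by 2.25. The largest rises of these lists were 2.17 for *Tnfrsf10b*, 1.13 for *Bcl2l1*, 2.09 for *Bbc3*, 1.63 for *Eif2ak2* and 4.98 for *Gbp2*. *Birc3* rose there by 2.24, a call lost without activated *SOD1* G93A replicate 1 or 2. Between quiescent WT cells, where 47.6% of all genes were called, microglia were higher for 2 of 5 ligands and receptors, 12 of 21 complex genes, 2 of 13 apoptotic caspases, 6 of 7 guardians, 6 of 9 effectors, 5 of 8 necroptosis inputs and 11 of 17 inflammasome genes. Led by the largest log2 difference of each list, these were *Tnf* (3.73), *Birc3* (4.53, or 3.83 with a pseudocount of 5), *Casp9* (1.54), *Bcl2a1b* (5.93, uncertain as a single gene), *Bcl2l11* (2.68), *Tlr4* (3.44) and *Nlrp1b* (6.25, or 4.37 with a pseudocount of 5 and 6.99 with one of 0.5), of which *Birc3* and *Nlrp1b* averaged fewer than 10 normalized counts in quiescent astrocytes. Astrocytes were higher for *Bok*, an effector of the Bcl-2 family, by at least 6.81-fold against 3 reads in each microglial library, and for 2 inflammasome genes, among them *Gbp3* (−1.55). The difference of responses, microglia minus astrocytes, was called for 15.2% of all genes. It was positive for 9 of 17 inflammasome genes, led by *Il1b* (7.40), and for 3 of 21 complex genes, among them *Ikbke* (5.38), whose call was lost with a pseudocount of 0.5 and in 9 fits that left out a library. The value for *Ikbke* was 4.58 with a pseudocount of 5, 4.405 by edgeR and 4.42 by DESeq2. Without quiescent WT microglia replicate 2 or 3 it was 4.15 or 6.02. Of 5 ligands and receptors the difference of responses was positive for *Tnf* (4.22) and negative for 3, *Tnfrsf10b* lowest (−2.31, adjusted p = 3.96e-06). It was negative for 2 of 7 guardians, *Bcl2l1* lowest (−1.86), and for 2 of 9 effectors and BH3-only genes, *Bcl2l11* lowest (−1.61). Of 8 necroptosis inputs it was positive for *Zbp1* and negative for *Tlr4* (−1.50), whose call was lost in 5 fits that left out a library. A negative difference can be a larger rise in astrocytes, a fall in microglia or both. In WT microglia *Bcl2l1* went from 2332, 2386 and 2307 to 1446, 1408 and 1395 normalized counts with LPS. *Bcl2l11* went from 718, 694.6 and 675.8 to 543.5, 662.9 and 605.4. *Tnfrsf10b* was narrowly lower (32.18, 29.25 and 26.47 to 19.1, 21.34 and 26.06), and the *Tlr4* groups overlapped. In WT astrocytes *Bcl2l1*, *Tnfrsf10b* and *Tlr4* rose by 1.155, 1.94 and 1.38 on the log2 scale.

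Some genes ran close to the 8 across the 21 libraries in log2 level, a likeness that rests mostly on the steps between the 7 conditions, since replicates share a condition. Among 11235 genes with a mean of at least 5 RPM, *Mlkl* was most like *Mx1* (Pearson r 0.98) and *H2-Q4* (0.98), *Fas* like *Ptpn2* (0.96) and *Clcf1* (0.96), and *Casp4* like *Fosl2* and *Bcl3* (both 0.99). *Gsdmd* ran with *Samsn1* (0.996) and *Lcp2* (0.993), *Casp8* with *Mvp* and *Atf3*, *Ripk1* with *Acvrl1* and *Atp8b4*, *Ripk3* with *Pdcd6ip*, and *Cflar* with *Arhgef3* and *Rffl*, the values from *Casp8* on all being 0.99. Within the 8, r was 0.97 for *Ripk1* and *Gsdmd*, 0.94 for *Mlkl* and *Cflar*, 0.64 for *Fas* and *Casp4* and −0.32 for *Fas* and *Ripk1*.

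In the GRCm38 annotation *Fas* (ENSMUSG00000024778.13) spans chr19:34290666-34327772 on the plus strand and *Casp4* (ENSMUSG00000033538.13) chr9:5308828-5336783 on the plus strand. *Cflar* (ENSMUSG00000026031.15) at chr1:58711508-58758884 and *Casp8* (ENSMUSG00000026029.14) at chr1:58795374-58847503 are neighbours on the plus strand of the same chromosome. *Mlkl* (ENSMUSG00000012519.14) spans chr8:111311797-111338177 and *Ripk3* (ENSMUSG00000022221.14) chr14:55784995-55788865, both on the minus strand. *Ripk1* (ENSMUSG00000021408.15) spans chr13:34002363-34037147 and *Gsdmd* (ENSMUSG00000022575.5) chr15:75862327-75867408, both on the plus strand.

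Promoter windows from RefSeq (GRCm38.p6), 250 bases before to 50 after a start, were at hand for 7 of the 8 genes, in 9 windows, and none for *Gsdmd*. They were searched on both strands for the κB motif, for the interferon-stimulated response element (ISRE, a pair of GAAA with any 2 bases between) and for the gamma-activated sequence (GAS, TTCNNNGAA), which 8.46%, 3.44% and 8.30% of all 32851 windows hold. The upstream stretches of *Casp4* and *Fas* are shown because these genes rose in both cell types. Capitals mark κB matches in *Casp4*, at chr9:5308756-5308766 (2 that overlap) and chr9:5308810-5308819, and a GAS match in *Fas*, at chr19:34290566-34290574; the stretches lie at chr9:5308599-5308827 and chr19:34290409-34290658, both on the plus strand and upstream of the annotated first exon.
Casp4: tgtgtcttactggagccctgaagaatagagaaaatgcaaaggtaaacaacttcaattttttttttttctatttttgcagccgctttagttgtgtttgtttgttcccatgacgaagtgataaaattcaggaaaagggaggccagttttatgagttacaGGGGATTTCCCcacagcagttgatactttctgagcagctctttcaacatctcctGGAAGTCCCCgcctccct
Fas: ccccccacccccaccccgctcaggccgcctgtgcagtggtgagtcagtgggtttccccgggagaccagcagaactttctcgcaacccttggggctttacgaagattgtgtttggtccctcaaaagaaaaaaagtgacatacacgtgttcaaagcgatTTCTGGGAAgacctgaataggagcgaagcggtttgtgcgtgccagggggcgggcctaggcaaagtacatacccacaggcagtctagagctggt
A window of *Ripk1* held an ISRE match at chr13:34002869-34002878 and 2 GAS matches, and the *Cflar* window an ISRE match at chr1:58711497-58711506. These letters were not found in the windows of *Mlkl*, *Ripk3* and *Casp8*. A match describes the sequence and is no evidence of binding.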

How the data were processed

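Poly(A) RNA of 21 libraries was analysed. Per the study's methods the authors aligned reads with STAR 2.7.3a to mm10, counted them per gene with RSEM and normalized them with DESeq2, in 6 tables that each hold a pair of conditions. The deposited values are a signal of DESeq2 normalized counts, a gene's reads divided by a size factor set separately in each table. The tables also hold the authors' own fold changes and p-values, which were not used. The counting setting for strand and the gene annotation are not given in the sources used here.

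Whole reads were recovered from the steps of low values (100% of values whole within 0.01). A library present in several tables gave the same reads in each. The table that pairs *SOD1* G93A LPS with WT quiescent microglia served only to check reads. Levels are RPM of recovered reads, and RPM per kb uses GENCODE M21 exon lengths. limma 3.58.1 with an intensity trend was run in R 4.3.3 on log2(normalized count + 1) of the deposited tables, for genes with a mean of at least 10. Since tables were normalized separately, the response of *SOD1* G93A astrocytes and the differences between responses or cell types came from joint fits of 4 groups and 12 libraries on recovered reads scaled by the median of ratios. Benjamini-Hochberg adjustment covered all genes of a fit. Intervals of fold changes are at 95%.

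Count tests on the recovered reads, edgeR 4.0.16 (quasi-likelihood) and DESeq2 1.42.0 (Wald), called 1491 and 1540 genes for WT astrocyte activation, 2368 and 2398 for LPS in WT microglia, 86 and 81 for genotype in activated astrocytes, 1658 and 1663 for *SOD1* G93A astrocyte activation, 6023 and 6047 between quiescent cell types and 1994 and 2184 for the difference of responses. Fits were tested on simulated data. Other alternatives were pseudocounts of 0.5 and 5, TMM, no filter, at least 10 in every library, a replicate block and each library left out in turn.

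Named genes were the 8 genes; for each pathway list and comparison, up to 2 called genes that rose most and 2 that fell most (1 each in joint fits), taken from those without overlap between groups; the 2 most alike per gene by Pearson r; and the most abundant marker of a list and those at 0. A gene that this rule takes for likeness is not reported here. *Fasl*, *Fadd* and *Casp1* were added after their values were seen. The 8 genes and the lists were chosen with earlier results of these data known. Scripts ran in Python 3.11.15.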

Additional observations from a re-analysis of the deposited data

Results flagged for a closer look

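The log2 response of *Cflar* to LPS in WT microglia exceeded its response to IL-1α, TNFα and C1q in WT astrocytes by 1.27 (limma interaction test, adjusted p = 1.55e-05). It was flagged as a difference of effect between the 2 cell types, in which the stimulus differs as well. *Cflar* was the 1 gene of 8 called in that comparison, beside 15.2% of 12334 genes.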

How the results depend on the processing

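Among 59 changes of the 8 genes (41 where at least 10 in every library was asked for), TMM kept the sign and the side of the rule of 58 and turned the sign of 1, and DESeq2 kept 56, turned 1 and gained 2 calls. Over all fits that left out a library 477 kept both, 26 turned sign, 8 calls ended and 5 were gained. No reversed value was called. The genotype difference of *Ripk1* in activated astrocytes was 0.033 with edgeR and 0.02 with DESeq2. The difference of the astrocyte responses for *Mlkl* was -0.249 with a pseudocount of 0.5 and -0.011 with TMM, and the difference of cell type responses for *Casp4* was 0.014 with a pseudocount of 5. The cause was not tested.

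The looser rule by its construction called more genes: 4722 for WT and 5328 for *SOD1* G93A astrocyte activation (5 of the 8 genes in the latter), 6185 for LPS in WT microglia, 9699 between quiescent cell types, 5052 for the difference of cell type responses (2 of the 8), 879 for genotype in activated astrocytes, 7 in quiescent astrocytes, 1 in LPS microglia and 34 for the difference of astrocyte responses. DESeq2 called 6 genes for genotype in quiescent astrocytes, 3 in LPS microglia and 22 for the difference of astrocyte responses, where edgeR called 4 and a pseudocount of 5 gave 3. For the difference of cell type responses a pseudocount of 5, edgeR and DESeq2 each called 2 of the 8 genes. With at least 10 in every library fewer genes entered, and 3 of the 8 were called for LPS in WT microglia and 3 of the 8 between quiescent cell types (3616 genes in all).

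With each library left out in turn, the difference of astrocyte responses called 0 to 6 genes and the difference of cell type responses 1 to 2 of the 8. Signs turned within these ranges, none called: LPS in WT microglia, *Ripk3* -0.033 to 0.231. Genotype in quiescent astrocytes gave *Ripk1* -0.013 to 0.157. In activated astrocytes it gave *Fas* -0.108 to 0.086, *Ripk1* -0.106 to 0.116 and *Cflar* -0.037 to 0.169, and in LPS microglia *Fas* -0.134 to 0.115, *Ripk3* -0.191 to 0.067 and *Cflar* -0.25 to 0.025. Activation of *SOD1* G93A astrocytes gave *Ripk1* -0.043 to 0.178. The difference of astrocyte responses gave *Ripk1* -0.187 to 0.034, *Mlkl* -0.515 to 0.951, *Casp4* -0.216 to 0.583 and *Cflar* -0.153 to 0.052, and that of cell type responses *Fas* -0.505 to 0.309. *Bok* fell below the mean minimum in 4 of 12 such fits between cell types.

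Same-numbered libraries were not treated as paired. The labels do not say whether they were prepared together, and correlations cannot settle it. In the 18 pairs of the comparisons of 2 conditions their deviations from the group means correlated between -0.436 and 0.059. Same-numbered pairs in the joint fits reached 0.134, and 5 of 18 treated libraries were closest to their own number. Libraries with other numbers reached 0.522 and 0.351 (quiescent *SOD1* G93A astrocyte replicates 1 and 3 with quiescent WT replicates 3 and 1). The genotype comparison of quiescent astrocytes uses these libraries, and its main fit did not model this shared variation. With the replicate block 1423 genes were called for WT and 1576 for *SOD1* G93A astrocyte activation, 2201 for LPS, 100 for genotype in activated astrocytes, 5848 between cell types and 1854 for the difference of cell type responses, and *Casp8* in *SOD1* G93A astrocytes was not called.

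Levels scaled by size factors in place of totals moved by a factor of 0.801 to 1.38, and 38 of 56 moved by over 1 SD. Only 4 of the 8 genes kept the order of their 7 means, so the orders given for RPM depend on the scaling. Depth limits *Ripk3*, *Mlkl*, *Gsdmd*, *Casp4* and *Casp8* in astrocytes and *Fas* and *Mlkl* in quiescent microglia, where single libraries held fewer than 10 reads.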
